A study of Mus musculus with 33 samples.

Results

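Time in culture was followed in mammary organoids of the genotype Cdh1+/F;Trps1F/F, which were harvested 28 days or 14 days after adenoviral Cre (AdCre transduction). The 4 libraries, 2 at each time, were chosen by genotype and harvest day, and they are 4 of the 33 samples of a mouse RNA-seq series and 4 of its 12 organoid libraries. The other 8 organoid libraries, 2 at each time for Cdh1F/F;Trps1F/F and for Cdh1F/F;Trps1+/+, served as the comparison. All 12 cultures were primary mammary organoids from mice with floxed Cdh1 and all received AdCre. Cdh1 encodes the epithelial adhesion protein E-cadherin, and Trps1 encodes a GATA-type repressor of transcription. One Cdh1 allele and both Trps1 alleles are floxed in the organoids described here, so both times share the same alleles and the same virus. No library without AdCre was used, and the labels do not state which exons are floxed or whether the cultures at a given time came from separate mice. P-values therefore measure the spread between these libraries, which may be technical.

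Mammary organoids are pieces of the milk duct tree kept in a three-dimensional culture. They hold luminal cells, which carry keratins 8, 18 and 19 and can secrete milk, and basal myoepithelial cells, which carry keratins 5 and 14 and contract. Fibroblasts, fat cells, vessel cells, macrophages and muscle cells of the surrounding tissue can come along when the gland is dissected.

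The deposited values are log2(normalized count + 1) per gene, called the log2 level below. Replicates are called a and b. Recovered reads came to 14858175 and 24826253 at day 28, against 21128923 and 18193969 at day 14, and the 12 organoid libraries ran from 14858175 to 30341900. Mitochondrial genes took 4.20% and 4.80% of the counts at day 28, against 1.77% and 2.12% at day 14. Both the luminal keratins Krt8 and Krt18 and the basal keratins Krt5 and Krt14 were at a log2 level above 12 in each of the 4 libraries, so epithelium of both kinds was present. Fibroblast markers were abundant as well: 25 fibroblast genes summed to between 642240 and 1035000 normalized counts in these libraries, against 92297 to 158520 for 30 luminal genes and 97023 to 103090 for 30 basal genes, sums that also depend on the genes listed. The median SD between the replicates of a gene was 0.0995 at day 28 and 0.101 at day 14 (log2, n = 2 each).

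Trps1 was at a log2 level of 9.45 and 10.04 at day 28, against 9.50 and 9.98 at day 14. Its time change was 0.00 ± 0.18 (log2, SE, limma adjusted p = 0.995), and the libraries of both times overlapped. The same gene ran from 13.51 to 13.96 in the 4 libraries with wild-type Trps1, and from 11.05 to 11.39 in Cdh1F/F;Trps1F/F. Counts over the whole gene check the deletion only in part, since exons outside the floxed stretch still give reads. Cdh1 was at 13.04 and 13.16 at day 28, against 13.52 and 13.50 at day 14. It fell by 0.41 ± 0.09 (log2, SE, limma adjusted p = 0.00282) and the libraries did not overlap. The time change of Cdh1 differed from that in Cdh1F/F;Trps1F/F by -0.70 (limma adjusted p = 0.00163) and from that in Cdh1F/F;Trps1+/+ by -0.80 (limma adjusted p = 0.000384), where it was 0.29 and 0.39.

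Skeletal muscle, fat-cell and oxidative stress genes were higher at day 28, and luminal keratins, tight-junction genes, macrophage genes and interferon-response genes were lower. Of 15861 genes tested, 3254 (20.5%) rose and 3212 (20.3%) fell (limma, Benjamini-Hochberg adjusted p under 0.05). At least 2-fold changes were seen in 764 of the genes that rose and in 602 of those that fell. In 11684 genes (73.7%) the libraries of both times did not overlap. The median time change over all tested genes was 0.04 (log2). With 2 libraries against 2, an exact permutation test of 1 gene cannot go below p = 0.333 (two-sided), so the calls rest on the spread that limma shares across all genes and the 12 libraries. Leaving out 1 library lowered the count of called genes from 6466 to 3793 without day 14 a and to 4303 without day 28 b. Shares and medians of gene lists below are read against the values for all genes, and no list was tested as a set.

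Genes of skeletal muscle fibres had the highest median change of the gene lists. Of the 24 listed genes of the contractile apparatus and its control, 23 were tested, 20 rose and none fell, with a median change of 1.69 (log2). Between 17 and 20 of them were called with any 1 of the 4 libraries left out. Their summed normalized counts were 101990 and 78959 at day 28, against 28336 and 32310 at day 14, a 2.98-fold higher mean. In a bulk sample, more or fewer cells of a type and more or less RNA per cell cannot be told apart, and this holds for every cell-type list below.

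The thick filament was represented by the myosin heavy chains. Myh1, a fast adult myosin at chr11:67200052-67224575 (GRCm38), stood at a log2 level of 13.11 and 12.76 at day 28, against 10.64 and 10.60 at day 14. It was 4.97-fold higher, a rise of 2.31 ± 0.23 (log2, SE, limma adjusted p = 2.68e-05). Both day 28 libraries were above both day 14 libraries. Myh8, the perinatal myosin, was at 11.96 and 11.72 at day 28 and at 9.74 and 10.14 at day 14, a rise of 1.90 (limma adjusted p = 0.00124). Myh3, the embryonic myosin, was at 10.15 and 9.48 at day 28, against 8.38 and 9.13 at day 14. Its change of 1.06 ± 0.46 did not pass (limma adjusted p = 0.0841) in the fit to all 12 libraries, though it did when only the 4 libraries were fitted (limma adjusted p = 0.0151). The myosin genes lie side by side and share sequence, so reads may have been split among them.

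Ttn, the giant spring protein of the sarcomere, was at 12.05 and 11.84 at day 28, against 10.24 and 10.26 at day 14. That is 3.24-fold higher (1.69 ± 0.14, SE, limma adjusted p = 6.31e-06). Tnnt3, fast troponin T, which ties calcium to contraction, was at 13.33 and 13.09 at day 28, against 10.61 and 11.08 at day 14. It was 5.15-fold higher (2.36 ± 0.24, SE, limma adjusted p = 2.92e-05). Acta1, skeletal alpha-actin, was at 13.98 and 13.51 at day 28, against 12.49 and 12.50 at day 14, a rise of 1.25 ± 0.26 (SE; limma adjusted p = 0.00277). In each of these genes day 28 a was the highest library, and no day 28 library overlapped one of day 14.

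The regulators of the muscle program moved less evenly. This list, the next one and the metabolic one were drawn up after values were seen, so their counts are a description. Of 13 tested regulators, 9 rose and none fell (median 1.20). Mef2c, a MADS-box factor that switches on sarcomere genes, was at 11.63 and 11.50 at day 28, against 10.14 and 10.16 at day 14, a rise of 1.42 ± 0.09 (SE; limma adjusted p = 1.02e-06). Myod1, the master factor of muscle determination, was at 8.17 and 7.51 at day 28, against 6.75 and 6.53 at day 14. Its rise of 1.20 ± 0.33 (limma adjusted p = 0.0119) was no longer called without day 14 b (1.09, limma adjusted p = 0.0688) or without day 28 a (0.87, limma adjusted p = 0.114). Myog, which drives fusion into fibres, was at 7.96 and 7.57 at day 28 and at 7.28 and 7.23 at day 14. Its libraries did not overlap, but the change of 0.51 ± 0.25 missed the threshold (limma adjusted p = 0.117). Myf6, a factor of mature fibres, and Mstn, which restrains muscle growth, rose by 2.01 (limma adjusted p = 0.00141) and 2.04 (limma adjusted p = 0.0035), Mstn being named after its value was seen. Pax7, the marker of muscle stem cells, was between 2.00 and 2.85 in all 4 libraries, too low to be tested.

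The machinery that turns a nerve signal into calcium release rose as well, in 14 of 17 genes and with no fall (median 1.27). Trdn, triadin, which anchors calsequestrin at the calcium release channel, lies at chr10:33080554-33476709. Its log2 level was 10.99 and 10.96 at day 28, against 7.94 and 8.38 at day 14. It was 7.04-fold higher (2.82 ± 0.22, SE, limma adjusted p = 4.66e-06), with the groups far apart. Musk, the receptor kinase that builds the neuromuscular junction, rose by 1.78 (limma adjusted p = 0.000151). The acetylcholine receptor has a fetal gamma subunit, Chrng, and an adult epsilon subunit, Chrne. Chrne was at 4.73 and 4.88 at day 28, against 3.22 and 3.04 at day 14 (1.68 ± 0.57, SE, limma adjusted p = 0.0324), a call lost when any 1 of the 4 libraries was left out (limma adjusted p from 0.0936 to 0.129). Chrng was at 8.99 and 8.64 at day 28, against 8.37 and 8.44 at day 14, and its change of 0.41 ± 0.25 did not pass (limma adjusted p = 0.206) except when only the 4 libraries were fitted (limma adjusted p = 0.0465). Chrne and Chrng were picked out after their values were seen, and the difference between them was not tested.

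Of 16 genes of muscle energy metabolism, 15 rose and none fell (median 1.25). Car3, carbonic anhydrase 3 of muscle and fat (chr3:14863512-14872523), had the largest rise among genes above the median level. It was at 9.53 and 9.07 at day 28, against 4.30 and 5.12 at day 14, a 24.1-fold higher level (4.59 ± 0.39, SE, limma adjusted p = 7.19e-06). Ckm, the cytosolic creatine kinase that buffers ATP, was at 11.58 and 11.14 at day 28, against 8.84 and 9.20 at day 14 (2.33 ± 0.31, SE, limma adjusted p = 0.00016). Its mitochondrial partner Ckmt2 was at 9.88 and 9.31 at day 28 and at 7.17 and 7.42 at day 14 (2.30 ± 0.26, SE, limma adjusted p = 5.54e-05). Ckm and Ckmt2 were higher in both day 28 libraries than in either day 14 library. Among the 15 genes named for the largest rises above that level, Myh15, a myosin heavy chain, rose by 3.15, Txlnb, a taxilin of muscle, by 2.37, and Xirp2, an actin-binding protein of muscle junctions, by 2.25 (limma adjusted p = 8.49e-05, 0.00016 and 0.000438).

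**Figure D1:**
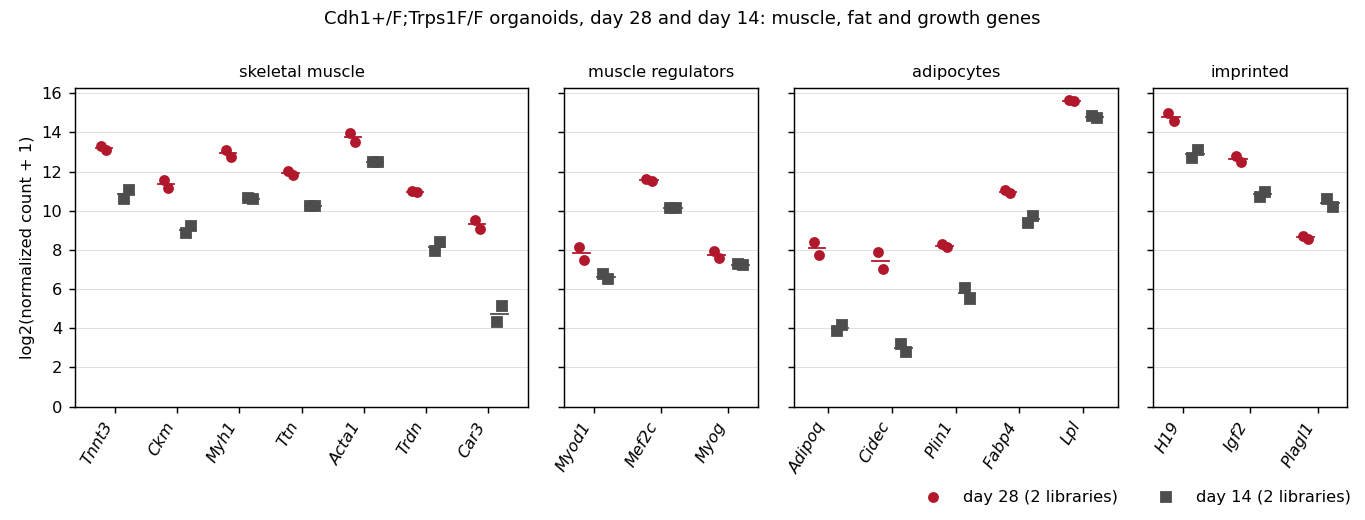
Log2 level of genes of skeletal muscle, its regulators, fat cells and imprinted growth genes in the day 28 libraries (left of each pair) and the day 14 libraries (right), 1 point a library and a horizontal bar at the mean of 2. Trdn stands near 11 in both day 28 libraries and near 8 in both day 14 libraries, while Myog differs by only 0.51 between the means.

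Muscle factors of the Myod1 family bind E-boxes, and the E-box form CAGCTG was searched in the promoters of the muscle list because the structural genes rose together. RefSeq windows (GRCm38.p6) from 250 bases before to 50 after the start were found for 20 of the 24 genes. The motif, which reads the same on both strands, was in 8 of these 20 (40%) and in 18.3% of the 27025 symbols in the promoter table. The motif was picked after values were seen, and a match describes letters only. Stretches of 30 bases that hold it are shown for 4 genes that rose, 5′ to 3′ on the gene's strand, with the motif in capitals.
Ckm, chr7:19410844-19410873, plus strand: cCAGCTGtcccccgccagctagactcagca
Casq1, chr1:172220073-172220102, minus strand: gggggaaggaacCAGCTGctgggagggagc
Mylpf, chr7:127211545-127211574, plus strand: cttcctgggctcCAGCTGctgcaggcctcc
Myl1, chr1:66945263-66945292, minus strand: aggtacgtctgtCAGCTGtcaccaaaccaa
Casq1, the calcium store protein, rose by 1.89 (limma adjusted p = 0.000129). The fast myosin light chains Mylpf and Myl1, shown for their promoters and not by the naming rule, rose by 1.60 (limma adjusted p = 0.000196) and 1.77 (limma adjusted p = 0.000163). A second muscle motif, the MEF2 site CTANNNNTAG, was in 2 of the 20 windows (10%) and in 4.23% of all symbols.

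Fat-cell genes were higher too. Of 17 tested genes of the adipocyte list, 13 rose and 1 fell (median 0.89), and 10 to 12 rose with any 1 library left out. The summed normalized counts of the list were 65971 and 63195 at day 28, against 37663 and 35612 at day 14. Adipoq, the hormone adiponectin (chr16:23146536-23158028), was at 8.42 and 7.76 at day 28, against 3.86 and 4.16 at day 14. It was 17.0-fold higher (4.08 ± 0.59, SE, limma adjusted p = 0.000262). Cidec and Plin1, which coat and enlarge lipid droplets, rose by 4.44 ± 0.52 and 2.44 ± 0.34 (SE; limma adjusted p = 6.68e-05 and 0.000195). Fabp4, the fatty acid carrier, was at 11.06 and 10.91 at day 28 and at 9.39 and 9.72 at day 14 (1.43 ± 0.27, SE, limma adjusted p = 0.00135). Pparg, the master regulator of fat cells, was at 9.16 and 9.26 at day 28 and at 8.35 and 8.47 at day 14 (0.80 ± 0.12, SE, limma adjusted p = 0.000375). All 5 genes separated the times without overlap. Cidea, a lipid droplet protein of brown fat, named after its value was seen, was the 1 gene of the list called lower, by 1.03 (limma adjusted p = 0.00271). The lowest change of the list was -1.07 in Adig, which was not called.

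Luminal epithelial genes were lower at day 28. Of 30 listed genes, 21 fell and none rose (median -0.54), with 19 to 22 lower when any 1 library was left out. Their summed normalized counts were 92297 and 101230 at day 28, against 151440 and 158520 at day 14, 0.624 times the day 14 mean. Krt8, the keratin that pairs with Krt18 in luminal cells (chr15:101996698-102004482), was at 12.40 and 12.61 at day 28, against 14.03 and 14.02 at day 14. It was 2.86-fold lower (-1.52 ± 0.10, SE, limma adjusted p = 1.87e-06). Krt18 was at 12.43 and 12.71 at day 28, against 13.68 and 13.75 at day 14 (-1.14, limma adjusted p = 1.42e-05). Krt7 and Krt19 fell by 1.72 and 1.37 (limma adjusted p = 3.65e-06 and 0.000134). Both day 28 libraries were below both day 14 libraries in all 4 keratins.

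Aldh1a3, which makes retinoic acid and marks luminal progenitors, was at 11.70 and 11.67 at day 28, against 13.36 and 13.51 at day 14. It was 3.37-fold lower (-1.75 ± 0.08, SE, limma adjusted p = 1.83e-07). Epcam, an epithelial adhesion protein, was at 13.30 and 13.44 at day 28 and at 13.84 and 13.96 at day 14 (-0.53, limma adjusted p = 0.000447). Elf5, the transcription factor of alveolar progenitors, overlapped between the times, with 12.07 and 12.24 at day 28 and 12.23 and 12.47 at day 14. Its change of -0.19 did not pass (limma adjusted p = 0.256). Tight-junction genes, some of which are also on the luminal list, fell in 15 of 21 cases and rose in none (median -0.46). Cldn3 and Cldn7, claudins that seal the space between cells, fell by 1.00 and 0.92, and the scaffold Cgn fell by 0.73. Tjp1, the general scaffold ZO-1, which was picked out after its value was seen, changed by 0.11 and was not called.

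Milk and alveolar genes fell in 12 of 25 tested cases and rose in none (median -0.75). Csn3, kappa-casein, which keeps milk protein in solution, was at 13.66 and 13.79 at day 28, against 14.74 and 15.10 at day 14 (-1.20 ± 0.15, SE, limma adjusted p = 0.000125). Csn2, beta-casein, was at 4.73 and 5.23 at day 28 and at 7.06 and 7.42 at day 14 (-2.26, limma adjusted p = 0.00047). Trf, the iron carrier transferrin, was at 7.62 and 7.39 at day 28, against 10.08 and 9.50 at day 14 (-2.28, limma adjusted p = 1.78e-05). Both day 28 libraries were below both day 14 libraries in all 3 genes. Aqp5, a water channel of secretory epithelium, was 3.90-fold lower (-1.97, limma adjusted p = 1.93e-06).

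Basal and myoepithelial genes did not follow the luminal ones: 12 of 30 rose and 5 fell (median 0.25). Krt14, a basal keratin, was 2.43-fold lower, with 13.56 and 13.53 at day 28 and 14.74 and 14.92 at day 14 (-1.28 ± 0.14, SE, limma adjusted p = 4.55e-05). Its partner Krt5 overlapped between the times, with 12.86 and 12.66 at day 28 and 12.82 and 12.95 at day 14 (-0.13, limma adjusted p = 0.472). Trp63, the transcription factor that maintains basal cells, was at 9.92 and 9.90 at day 28 and at 9.28 and 9.04 at day 14 (0.75 ± 0.12, SE, limma adjusted p = 0.000586). Acta2, smooth muscle actin, rose by 0.46 and the tropomyosin gene Tpm2 by 1.01 (limma adjusted p = 0.00165 and 2.62e-05). Tpm2 is also expressed in skeletal muscle and Acta2 in activated fibroblasts, and the part of those cells in the result was not tested. Of the anchors to the basement membrane, Itgb4 fell by 0.65 and Lamb3 by 0.87. Genes of squamous keratinization, the program of skin-like cells, fell in 13 of 23 cases and rose in 1, but in only 7 without day 14 b.

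Beside these epithelial changes, the summed counts of muscle and fat-cell genes were higher at day 28, as given above, and those of the 25 fibroblast genes were 757740 and 642240 at day 28, against 1035000 and 943900 at day 14. The basal list summed to 99191 and 97023 at day 28, against 98876 and 103090 at day 14. The part of such shifts in the luminal result was not tested.

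Macrophage genes were lower. Of 23 tested genes, 16 fell and none rose (median -1.58), and 15 or 16 fell with any 1 library left out. The list summed to 6850 and 8031 normalized counts at day 28, against 27211 and 27750 at day 14. Lyz2, lysozyme of macrophages (chr10:117277331-117282321), was at 11.42 and 11.82 at day 28, against 13.81 and 13.82 at day 14. It was 4.57-fold lower (-2.19 ± 0.19, SE, limma adjusted p = 7.7e-06). C1qa, a chain of the first complement component, was 22.3-fold lower, with 3.32 and 4.97 at day 28 and 8.68 and 8.57 at day 14 (-4.48 ± 0.50, SE, limma adjusted p = 5.71e-05). The day 28 libraries of C1qa lay far apart from each other, and both were below both day 14 libraries. Emr1 (F4/80, the classic surface marker) was at 6.69 and 6.64 at day 28 and at 8.96 and 9.11 at day 14, and Mrc1, the mannose receptor, was at 8.35 and 8.51 at day 28 and at 10.43 and 10.75 at day 14. Both fell, by 2.37 and 2.16 (limma adjusted p = 8.09e-06 and 6.35e-05). Csf1r, the receptor that keeps macrophages alive, fell by 0.98 (limma adjusted p = 0.00695), a call lost without day 28 a (-0.80, limma adjusted p = 0.0619). Ptprc, the pan-leukocyte marker CD45, also picked out afterwards, changed by -0.21 and was not called (limma adjusted p = 0.521).

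Endothelial genes were a minor signal, with summed counts of 2494.5 and 2323 at day 28 against 2576 and 2759 at day 14. Of 18 tested, 8 fell and 1 rose (median -0.84), and 5 fell without day 14 b. Cdh5, the adhesion protein of vessels, was at 5.66 and 5.29 at day 28, against 7.72 and 8.16 at day 14 (-2.46 ± 0.34, SE, limma adjusted p = 0.000207). Pecam1 fell by 1.38 (limma adjusted p = 0.00019). Of 20 lymphocyte genes, only 3 were high enough to test.

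**Figure D2:**
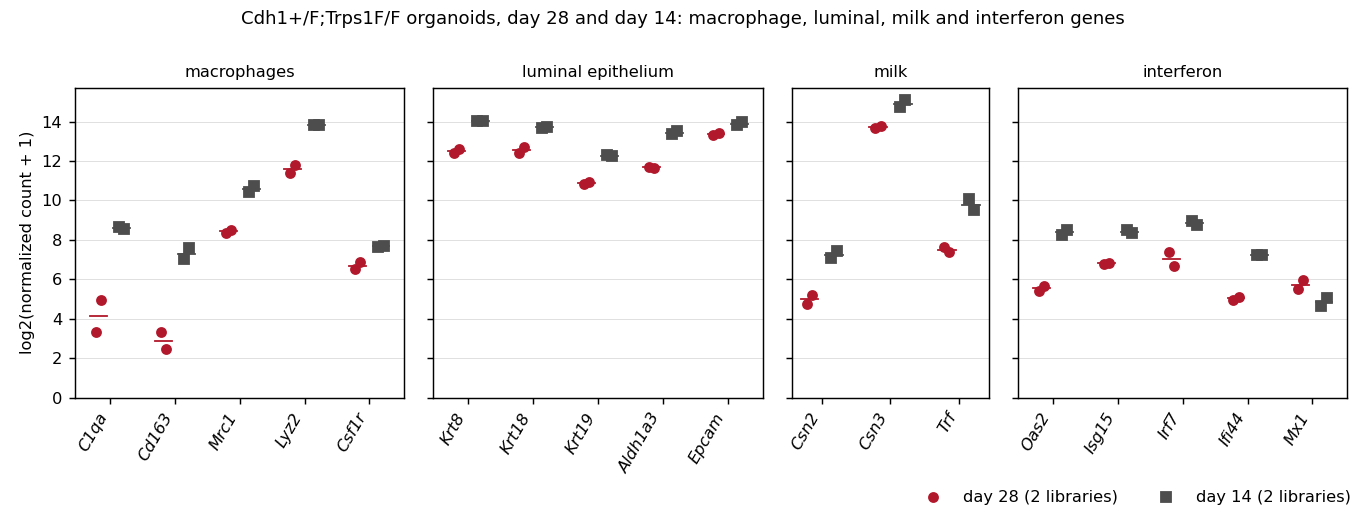
Log2 level of macrophage, luminal, milk and interferon-response genes in the day 28 libraries (left of each pair) and the day 14 libraries (right), 1 point a library and a horizontal bar at the mean of 2. Krt8 lies at 12.40 and 12.61 at day 28, below 14.03 and 14.02 at day 14, and Mx1 runs the other way within the interferon group.

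**Figure D3:**
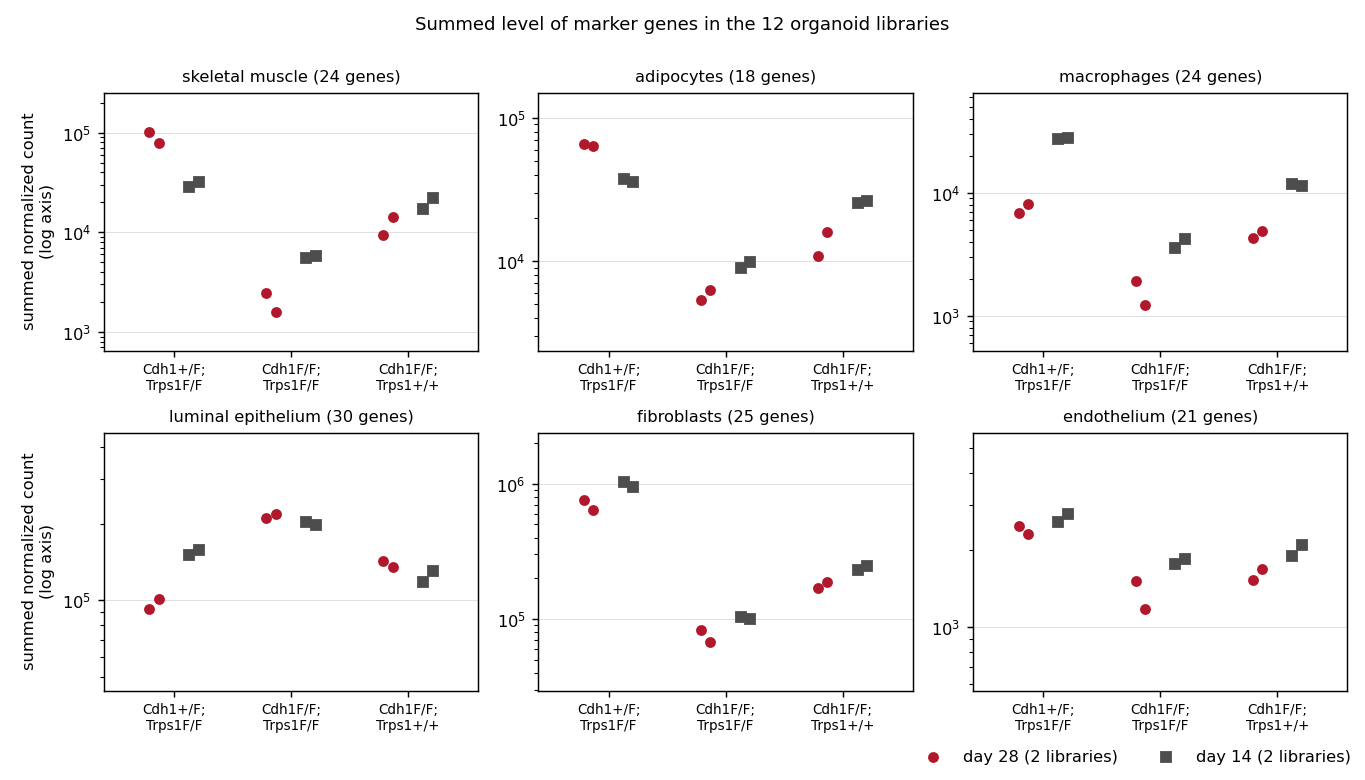
Summed normalized counts of 6 marker lists on a log axis in each of the 12 organoid libraries, with day 28 left of day 14 within each genotype. The skeletal muscle sum is higher at day 28 in Cdh1+/F;Trps1F/F and lower at day 28 in the other genotypes, while the macrophage sum is lower at day 28 in all 3.

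Stromal genes did not move as a block. The fibroblast list had 4 genes higher and 7 lower of 25 (median -0.14), and the 7 became 2 without day 14 a or without day 28 b and 4 without day 14 b. Col3a1, a fibrillar collagen, was at 17.41 and 17.13 at day 28, against 18.75 and 18.56 at day 14, 2.62-fold lower (-1.39 ± 0.18, SE, limma adjusted p = 0.000149). Lum and Dcn, the leucine-rich proteoglycans that space collagen fibrils, changed by 0.26 and 0.27 and were not called (limma adjusted p = 0.336 and 0.492). Pdgfra, the growth factor receptor that marks fibroblasts, changed by 0.24 and was not called either (limma adjusted p = 0.158). Among 19 collagen genes, 10 fell and 1 rose (median -0.46), and 4 fell without day 14 a or without day 28 b.

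Of 22 genes linked to mesenchymal transition, 9 rose and 1 fell (median 0.36), and 4 rose without day 28 b. Cdh2, N-cadherin, an adhesion protein of mesenchyme and muscle, was at 10.06 and 10.09 at day 28, against 8.62 and 8.77 at day 14 (1.38, limma adjusted p = 4.11e-06). Snai2, a repressor of epithelial genes found in basal cells and mesenchyme, was at 9.50 and 9.55 at day 28 and at 8.45 and 8.28 at day 14 (1.16, limma adjusted p = 7.18e-05). Both times were separate in both genes. Mgp, the matrix protein that restrains calcification, was among the genes with the largest rises (2.42 ± 0.11, SE, limma adjusted p = 1.83e-07), as were Lrrc15, a surface protein of activated fibroblasts, at 2.34 and the collagen gene Col8a2 at 2.23 (limma adjusted p = 0.000255 and 3.93e-05). Sfrp2, a secreted Wnt inhibitor of stroma, fell by 1.92 (limma adjusted p = 9.46e-05).

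**Figure D4:**
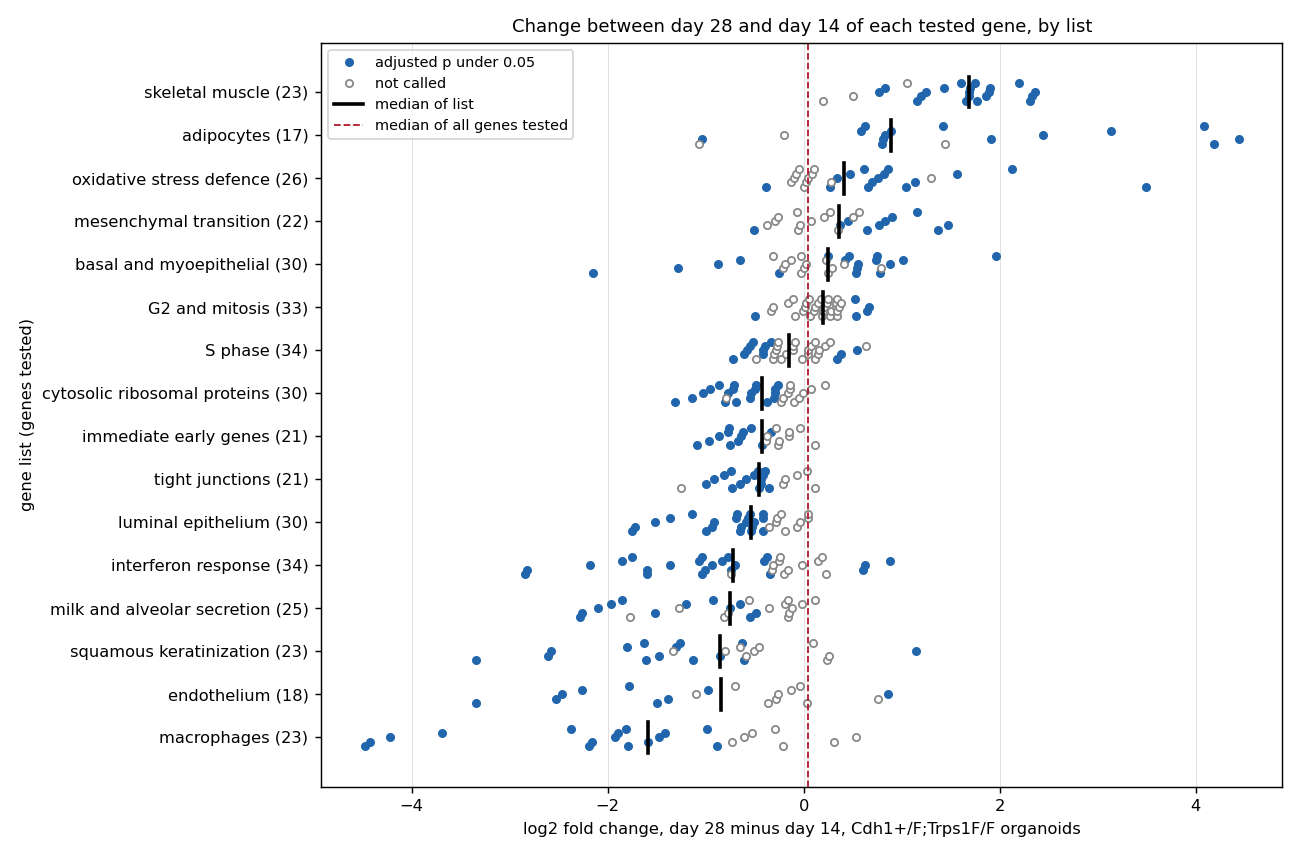
Log2 change (day 28 minus day 14) of each tested member of 16 gene lists (points, filled where called at an adjusted p under 0.05), with the median of each list as a bar and the median over all genes, 0.04, as a dashed line. The skeletal muscle members center on 1.69, the luminal members on -0.54 and the macrophage members on -1.58.

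Interferon-response genes were lower. Interferons act through transcription factors that bind a promoter element built from repeated GAAA blocks, and their targets block viral RNA. Of 34 genes, 20 fell and 3 rose (median -0.72), with 17 to 20 lower and 1 to 3 higher when any 1 library was left out. The element was searched on both strands as 2 GAAA blocks with any 2 bases between them, and 14 of the 24 members with a RefSeq window (58.3%) held it, against 3.99% of the 27025 symbols. The list was made of interferon targets, so a high share could be foreseen. It covers members that fell and members that did not, and it says nothing on the change with time. Stretches with the match in capitals are shown for 4 genes that fell and for Gbp2, which rose, 5′ to 3′ on the gene's strand.
Isg15, chr4:156200871-156200900, minus strand: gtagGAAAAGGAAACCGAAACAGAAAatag
Ifit1, chr19:34640784-34640813, plus strand: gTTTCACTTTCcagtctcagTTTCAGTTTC
Oas1a, chr5:120907523-120907552, minus strand: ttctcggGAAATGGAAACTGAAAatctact
Oas3, chr5:120777715-120777744, minus strand: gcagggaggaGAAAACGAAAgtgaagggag
Gbp2, chr3:142620594-142620623, plus strand: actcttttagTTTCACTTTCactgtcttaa
Ifit1 and Gbp2 carry the element on the opposite strand, so it reads as TTTC blocks. Ifit1, Oas1a, Oas3 and Gbp2 were shown for their promoters after values were seen.

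Isg15, a ubiquitin-like modifier, was at 6.79 and 6.84 at day 28, against 8.50 and 8.33 at day 14, 3.03-fold lower (-1.60 ± 0.11, SE, limma adjusted p = 2.07e-06). Oas2, a sensor of double-stranded RNA, was at 5.43 and 5.67 at day 28, against 8.27 and 8.51 at day 14, 7.18-fold lower (-2.85 ± 0.21, SE, limma adjusted p = 3.91e-06). Irf7, the factor that amplifies the response, was at 7.36 and 6.67 at day 28 and at 8.96 and 8.77 at day 14 (-1.85, limma adjusted p = 3.69e-05). In these genes no day 28 library reached the day 14 range. Oas3 and Oas1a, close relatives whose reads may be shared, fell by 2.83 and 1.60, and Ifit1 fell by 0.77 (limma adjusted p = 3.96e-05, 0.000399 and 0.00988). The call of Ifit1 was lost without day 14 b (-0.65, limma adjusted p = 0.0727) or without day 28 a (-0.74, limma adjusted p = 0.0519). Gbp2, a guanylate-binding protein, was at 8.74 and 8.73 at day 28, against 7.93 and 8.33 at day 14, and rose by 0.60 (limma adjusted p = 0.00577), but by 0.41 without day 14 a (limma adjusted p = 0.0747). Mx1, an antiviral GTPase, rose by 0.88 (limma adjusted p = 0.0211), was named after its value was seen, and lost the call without day 14 a (0.67, limma adjusted p = 0.155) or day 28 b (0.67, limma adjusted p = 0.148). The macrophage sums given above were also lower at day 28, and the part of those cells in the interferon result was not tested.

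Cytokine genes of the NF-kB list were mixed, with 7 higher and 7 lower of 28. Tnf, the inflammatory cytokine, was at 8.76 and 9.16 at day 28, against 6.65 and 6.87 at day 14 (2.20 ± 0.13, SE, limma adjusted p = 1.02e-06). Vcam1, the adhesion protein for leukocytes, was at 12.79 and 12.59 at day 28 and at 10.78 and 10.90 at day 14 (1.85, limma adjusted p = 1.02e-06). Cxcl3, a neutrophil attractant, was at 3.32 and 3.31 at day 28, against 6.49 and 6.59 at day 14 (-3.23, limma adjusted p = 7.79e-05). Without 1 library, the 7 higher genes became 3 (without day 14 a or day 28 b) or 4 (without day 14 b).

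Genes of oxidative stress defence rose in 14 of 26 cases and fell in 1 (median 0.41). Gclc, the rate-limiting enzyme of glutathione synthesis, was at 12.04 and 12.20 at day 28, against 10.97 and 10.99 at day 14 (1.14 ± 0.09, SE, limma adjusted p = 6e-06). Cat, catalase, was at 13.13 and 13.10 at day 28 and at 12.24 and 12.35 at day 14 (0.82, limma adjusted p = 1.92e-05). Gsta1, a glutathione transferase with near-identical relatives, was at 6.97 and 6.80 at day 28 and at 3.37 and 3.41 at day 14 (3.50 ± 0.48, SE, limma adjusted p = 0.000191). Immediate early genes, which answer growth signals and handling within minutes, fell in 12 of 21 cases and rose in none (median -0.43). Fos was at 14.90 and 15.07 at day 28, against 15.80 and 15.70 at day 14 (-0.76, limma adjusted p = 0.000575), and Jund, Junb and Jun fell by 1.09, 0.77 and 0.75. The motifs TGANTCA (AP-1) and TGACGTCA (CREB) were searched in the promoter windows of 16 members of this list. TGANTCA was in 0 of 16, against 8.97% of all symbols. TGACGTCA was in 1 (6.25%), against 2.03%. Ribosomal protein genes of the cytosol fell in 19 of 30 cases and rose in none (median -0.43).

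Among growth factor genes, the imprinted neighbours H19 and Igf2 rose. H19, a noncoding RNA, was at 14.98 and 14.56 at day 28, against 12.70 and 13.10 at day 14, 3.67-fold higher (1.87 ± 0.20, SE, limma adjusted p = 3.93e-05). Igf2, the fetal growth factor, was at 12.80 and 12.47 at day 28 and at 10.68 and 10.98 at day 14, 3.49-fold higher (1.80 ± 0.21, SE, limma adjusted p = 6.29e-05). Plagl1, a zinc-finger factor that activates both in mice, was at 8.71 and 8.58 at day 28 and at 10.62 and 10.20 at day 14, and fell by 1.76 (limma adjusted p = 0.000181). The imprinted list, drawn up after values were seen, had 6 of 11 genes higher and 3 lower, with 2 higher without day 28 a and 3 without day 28 b. Igfbp3 and Igfbp5, which bind IGFs outside cells, fell by 1.90 and 0.84.

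The genes named for the largest falls, among genes above the median level, were not of 1 cell type. Alb, serum albumin, was at 6.46 and 6.82 at day 28, against 9.65 and 9.57 at day 14, 7.82-fold lower (-2.97 ± 0.47, SE, limma adjusted p = 0.000486). Hal, the histidine-degrading enzyme of liver and skin, was 6.69-fold lower, with both day 28 libraries below both day 14 libraries (-2.74 ± 0.25, SE, limma adjusted p = 1.37e-05). Reg1 and Reg3g, secreted lectins of injured or inflamed epithelium, fell by 2.61 and 2.34 (limma adjusted p = 0.000151 and 0.000625). Wfdc17, a macrophage-expressed inhibitor, fell by 2.53, Adam8, a leukocyte protease, by 2.29, and Smoc1, a secreted calcium-binding protein, by 2.14.

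The time change was then set against that of Cdh1F/F;Trps1F/F, which shares floxed Trps1 but has both Cdh1 alleles floxed, and of Cdh1F/F;Trps1+/+. In Cdh1F/F;Trps1F/F 2345 genes (14.8%) rose with time and 3268 (20.6%) fell, and in Cdh1F/F;Trps1+/+ 1767 (11.1%) rose and 2337 (14.7%) fell. Of the 3254 genes that rose in Cdh1+/F;Trps1F/F, 1027 also rose in Cdh1F/F;Trps1F/F, which is 31.6% of that list and 43.8% of the list of 2345. Of the 3212 genes that fell, 1459 also fell there (45.4% and 44.6% of each list). With Cdh1F/F;Trps1+/+ the shared genes were 429 higher (13.2% and 24.3%) and 534 lower (16.6% and 22.8%). Opposite calls were made as well. Of the 3254 genes that rose in Cdh1+/F;Trps1F/F, 448 (13.8%) fell in Cdh1F/F;Trps1F/F and 509 (15.6%) fell in Cdh1F/F;Trps1+/+. Of the 3212 that fell, 102 (3.18%) rose in Cdh1F/F;Trps1F/F and 465 (14.5%) rose in Cdh1F/F;Trps1+/+. Tested as an interaction, the time change in Cdh1+/F;Trps1F/F was higher than in Cdh1F/F;Trps1F/F in 1860 genes (11.7%) and lower in 1178 (7.43%). Against Cdh1F/F;Trps1+/+ it was higher in 2868 genes (18.1%) and lower in 2504 (15.8%). Without day 28 a the first of these totals was 1999 in place of 3038.

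The muscle program went the opposite way in the other genotypes. All 23 tested genes of the muscle list had a higher time change in Cdh1+/F;Trps1F/F than in either other genotype by the interaction test. In Cdh1F/F;Trps1F/F 20 fell and none rose (median -1.45), and in Cdh1F/F;Trps1+/+ 10 fell and none rose (median -0.71). Ttn fell by 1.74 in Cdh1F/F;Trps1F/F and by 1.26 in Cdh1F/F;Trps1+/+. The summed muscle counts were 2437.5 and 1604.4 at day 28 against 5505 and 5849 at day 14 in Cdh1F/F;Trps1F/F. They were 9450.5 and 14323 at day 28 against 17242 and 22297 at day 14 in Cdh1F/F;Trps1+/+. Every library of these genotypes was thus below the lowest Cdh1+/F;Trps1F/F library, at day 14 as well as at day 28. Of the 17 fat-cell genes, 12 had a higher time change than in Cdh1F/F;Trps1F/F and 11 than in Cdh1F/F;Trps1+/+.

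Lum shows the stromal side of the same difference. It stayed at 14.50 and 14.23 at day 28 and 14.09 and 14.11 at day 14 in Cdh1+/F;Trps1F/F, and fell by 4.40 in Cdh1F/F;Trps1F/F and by 3.49 in Cdh1F/F;Trps1+/+ (difference 4.65 and 3.75). The fibroblast list fell in 19 of 25 genes in Cdh1F/F;Trps1F/F and in 14 in Cdh1F/F;Trps1+/+. Its summed counts in Cdh1F/F;Trps1F/F were 82631 and 68230 at day 28, against 103100 and 101040 at day 14. In Cdh1F/F;Trps1+/+ they were 168650 and 188930 at day 28, against 232240 and 246930 at day 14. At both times these are far below the sums of Cdh1+/F;Trps1F/F given above. The sums themselves fell by a like share in each genotype. The day 28 mean was 0.71 times the day 14 mean in Cdh1+/F;Trps1F/F, 0.74 in Cdh1F/F;Trps1F/F and 0.75 in Cdh1F/F;Trps1+/+.

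Luminal genes had a lower time change in Cdh1+/F;Trps1F/F in 21 of 30 cases against Cdh1F/F;Trps1F/F and in 24 of 30 against Cdh1F/F;Trps1+/+. Krt8 changed by 0.05 and 0.01 in those genotypes and was not called in them (difference -1.56 and -1.53). In Cdh1F/F;Trps1+/+ 12 luminal genes rose and none fell. Macrophage genes fell in each genotype, in 16 of 23 genes in Cdh1F/F;Trps1F/F and in 17 in Cdh1F/F;Trps1+/+, with medians of -1.18 and -1.26. Interferon-response genes also fell in each, in 23 and 17 of 34 genes. Of 26 oxidative stress genes, 14 rose and 6 fell in Cdh1F/F;Trps1F/F, and 12 rose and 4 fell in Cdh1F/F;Trps1+/+. Ribosomal protein genes fell in 19 and 27 of 30 cases in those genotypes and rose in 0. Of 25 milk and alveolar genes, 10 fell in each of them, and 2 and 1 rose.

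Cell division genes set Cdh1F/F;Trps1F/F apart. All 33 genes of G2 and mitosis rose with time there (median 1.70), while in Cdh1+/F;Trps1F/F 4 rose and 1 fell (median 0.20), with none higher without day 14 a or without day 28 b. The difference was called in all 33 genes. Genes of cholesterol synthesis and uptake showed the same split, with 21 of 25 higher in Cdh1F/F;Trps1F/F (median 1.01) and 5 higher and 9 lower in Cdh1+/F;Trps1F/F (median -0.17), where 4 were lower without day 14 a or day 28 b and 3 were higher without day 14 a. Abca1, which exports cholesterol, was at 12.50 and 12.52 at day 28, against 11.61 and 11.47 at day 14, in Cdh1+/F;Trps1F/F. It rose by 0.98 there (limma adjusted p = 7.09e-06) and fell by 1.09 in Cdh1F/F;Trps1F/F. Genes of the unfolded protein response fell in 25 of 28 cases in Cdh1F/F;Trps1+/+ (median -1.02) and in 14 in Cdh1F/F;Trps1F/F (median -0.27). None rose in either. In Cdh1+/F;Trps1F/F 9 fell and 5 rose (median -0.09), and fewer were called higher with any 1 library left out. Against Cdh1F/F;Trps1+/+, 21 had a higher time change in Cdh1+/F;Trps1F/F.

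**Figure D5:**
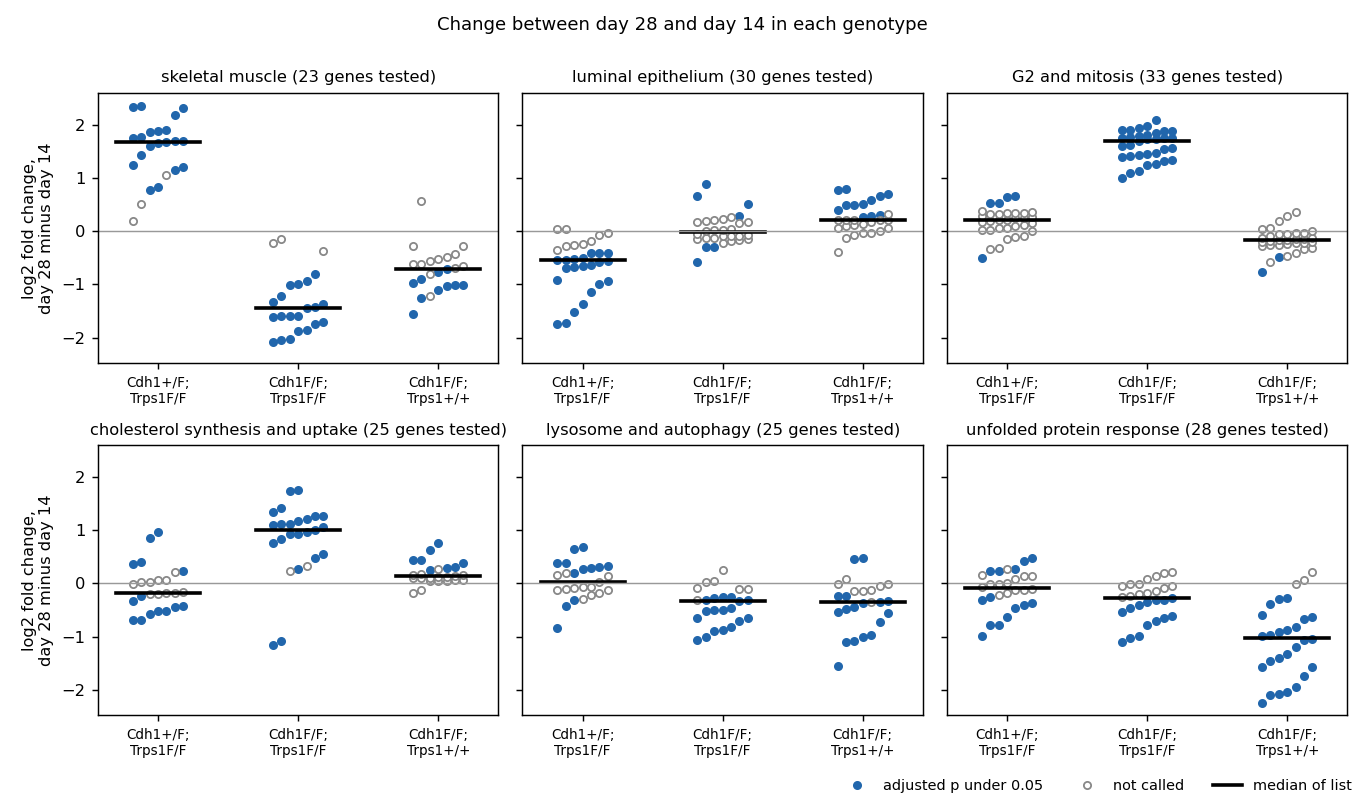
Log2 change (day 28 minus day 14) of each tested member of 6 gene lists in Cdh1+/F;Trps1F/F, Cdh1F/F;Trps1F/F and Cdh1F/F;Trps1+/+ (points, filled where called, with the median of each list as a bar). The skeletal muscle medians are 1.69, -1.45 and -0.71, and those of G2 and mitosis are 0.20, 1.70 and -0.16.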

How the data were processed

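RNA-seq of 12 mammary organoid libraries was used, 4 of them Cdh1+/F;Trps1F/F. Per the labels' protocols, total RNA with an integrity number above 8 was made into TruSeq libraries. Whether the kit kept strand is not stated, so antisense partners and near-identical genes are uncertain. The submitters' processing notes name TopHat, HTSeq and the build GRCm38. Per the file headers, the deposited values are log2 normalized counts made by the authors. Dividing by each library's smallest step gave whole reads for 100% of values within 0.01 reads, so depth is known. Floors and depth cover counting error only. Of 24201 symbols, 12 turned into dates and 1 row without a symbol (at most 1.31e-05% of reads) were left out.

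The deposited log2 values were fitted with limma 3.58.1 (R 4.3.3; eBayes with a variance trend) in 1 model of 6 groups with 6 residual degrees of freedom. Genes with a normalized count plus 1 of at least 10 in at least 2 libraries were tested (15861). P-values were adjusted by the Benjamini-Hochberg method over all kept genes. Fold changes are on the log2(normalized count + 1) scale, which understates low genes. The fit was tested on simulated data. Coordinates are from GENCODE M21 (98.6% of kept symbols matched) and promoters from RefSeq GRCm38.p6.

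The genes named were Trps1, Cdh1, the 15 largest called rises and falls among genes above the median level, up to 6 members of each list with the smallest p, defining markers, and the 10 highest and lowest differences between genotypes. The members and the 50 gene lists were chosen with earlier results of these data known, and 4 lists were added after values were seen. Alternatives covered scaling, pseudocount, filter, variance model, samples fitted and each library left out.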

Additional observations from a re-analysis of the deposited data

Results flagged for a closer look

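All results listed here were singled out because the change with time differed between genotypes by an interaction test in limma (adjusted p under 0.05), and no cause was tested. The time change in Cdh1+/F;Trps1F/F differed from that in Cdh1F/F;Trps1F/F in 3038 genes and from that in Cdh1F/F;Trps1+/+ in 5372.

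The genes below were ranked among those whose mean log2 level in Cdh1+/F;Trps1F/F was above 8.83, the median over all tested genes, at day 28 or at day 14. Some genes under that level differed by more, such as Cidec (7.98) and Adipoq (6.71) against Cdh1F/F;Trps1F/F, and are not in the ranking. Against Cdh1F/F;Trps1F/F, the 10 highest differences (log2) above that level were 7.73 in Car3, 4.74 in the collagen-cutting protease gene Ctsk, 4.65 in Lum, 4.52 in Cadm3, 4.50 in Ppp1r3a, which anchors glycogen phosphatase in muscle, 4.47 in Fgl2, 4.24 in Ckmt2, 4.23 in the muscle laminin gene Lama2, 4.14 in Txlnb and 3.97 in Dpep1. Ctsk was at a log2 level of 13.81 and 13.50 at day 28 and 13.01 and 12.97 at day 14 in Cdh1+/F;Trps1F/F, where it rose by 0.66, a call lost without day 14 a, day 14 b or day 28 a (0.51 to 0.69), and it fell by 4.08 in Cdh1F/F;Trps1F/F. The 10 lowest above that level were -2.88 in Alb, -2.70 in Hs3st3b1, -2.64 in Aldh1a3, -2.55 in Rasgef1c, -2.40 in Dpysl4, -2.37 in Cdhr1, -2.32 in Crip1, -2.14 in Aqp5, -2.09 in Sfrp2 and -2.05 in Col26a1. The ranking set no minimum in the other genotypes. In the day 28 libraries of Cdh1F/F;Trps1F/F, 3 reads stand at 2.03 and 2.26 (log2). Car3 was at 0 in both of them, Cidec at 1.02 and 0, and Adipoq at 2.03 and 0. Car3 was at 2.73 and 3.54 at day 14 there, and its fall of 3.14 is part of the 7.73. The sizes of the differences in Car3, Cidec and Adipoq thus rest in part on a few reads.

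Against Cdh1F/F;Trps1+/+, the 10 highest above that level were 4.87 in Fgl2, 4.70 in Ctsk, 4.24 in Car3, 3.97 in Cadm3, 3.84 in the endothelin receptor gene Ednrb, 3.75 in Lum, 3.70 in Trdn, 3.70 in Nova1, 3.67 in the complement gene C7 and 3.67 in Xirp2. The 10 lowest above that level were -3.22 in Smoc1, -2.82 in Col27a1, -2.60 in Alb, -2.52 in Rasgef1c, -2.46 in Hs3st3b1, -2.45 in Ltbp2, -2.42 in Dpysl4, -2.36 in Lrrc75b, -2.25 in Crip1 and -2.23 in Krt7. Car3, Ctsk, Lum, Cadm3 and Fgl2 were among these highest, and Alb, Hs3st3b1, Rasgef1c, Dpysl4 and Crip1 among these lowest, in both comparisons, which share the Cdh1+/F;Trps1F/F libraries. Ednrb was at 11.09 and 10.93 at day 28 and 9.89 and 9.86 at day 14, a rise of 1.13, and it fell by 2.70 in Cdh1F/F;Trps1+/+. In Cdh1F/F;Trps1+/+, Dpysl4 was at 2.13 and 1.46 at day 28 and at 1.00 and 1.47 at day 14. There 3 reads stand at 1.60 and 1.86 at day 28 and at 2.00 and 1.88 at day 14. The time change of Dpysl4 in Cdh1F/F;Trps1+/+ thus rests on a few reads. Col27a1 changed by -0.46 in Cdh1+/F;Trps1F/F and was not called there (limma adjusted p = 0.491). In Cdh1F/F;Trps1+/+ it was at 6.67 and 8.76 at day 28 and at 5.32 and 5.39 at day 14. The day 28 libraries of Alb also lay apart in Cdh1F/F;Trps1+/+, at 5.55 and 7.49. The sizes of these 2 differences thus depend on replicates that disagree. No group had the 4 samples needed to look for single libraries far from the rest.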

How the results depend on the processing

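No paired analysis was possible because both columns of each Cdh1+/F;Trps1F/F group carry the same replicate number. The count of genes changed with time, 6466, ran from 3793 to 5106 with 1 of the 4 libraries left out, and from 5721 to 6819 under the other settings. The count differing from Cdh1F/F;Trps1F/F, 3038, ran from 1999 to 2521 with 1 library left out, and that differing from Cdh1F/F;Trps1+/+, 5372, from 4038 to 4534. Of 418 gene results followed, 340 kept their direction and their side of the threshold in each of the 16 settings in which they were fitted, and none changed sign while called. Fits to fewer genotypes did not cover every comparison, and the higher filter left some genes out. Of the list medians that were larger than the SD between replicate libraries, 4 changed sign in some setting. Medians within that SD changed sign too, such as that of fibroblasts (0.03 without day 28 b). Of the 4, lymphocyte genes reached 0.80 with a filter at 50. With 1 library left out, NF-kB genes ran from -0.21 (without day 28 b) to 0.31, metallothioneins from -0.0028 (without day 28 b) to 0.26 and Wnt genes from -0.081 (without day 14 b) to 0.090. The causes were not tested. With 2 libraries per group, a lone sample left in a group is assumed to vary like the others. Genes of a few reads, such as Cd3e and Pax7, are limited by depth.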

Other observations

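Targets of p53, the damage-response factor, rose in 13 of 28 cases and fell in 4 (median 0.21), and 8 rose without day 14 b. Eda2r, a death-domain receptor, and Pmaip1, a BH3-only cell-death protein, rose by 1.17 and 1.12. The list also counts Cdkn2a, a gene of cell-cycle inhibitors rather than a p53 target, which rose by 0.97. Among the 4 that fell were Bbc3, by 0.70, and Ddit4, by 0.65 (limma adjusted p = 0.00491 and 0.000482). Mdm2, the p53 antagonist, was at a log2 level of 11.38 and 11.50 at day 28 and at 11.14 and 11.18 at day 14, a rise of 0.28 (limma adjusted p = 0.0309) that was no longer called without day 14 a (0.26), day 14 b (0.30) or day 28 b (0.22). Cdkn1a, the classic target, changed by 0.25 and was not called (limma adjusted p = 0.12), except when only the 8 libraries with floxed Trps1 were fitted (limma adjusted p = 0.0363). Mdm2 and Cdkn1a were picked out after their values were seen.

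In Cdh1+/F;Trps1F/F, 9 of 25 lysosome genes were called higher and 3 lower (median 0.03), with 4 higher without day 14 b or without day 28 a. In Cdh1F/F;Trps1F/F none rose and 18 fell, and 19 of the 25 genes had a higher time change in Cdh1+/F;Trps1F/F. Of 20 genes of hormone-sensing luminal cells, 4 rose and 3 fell (median 0.03). Tnfsf11, the RANK ligand that such cells send to their neighbours, was at 7.20 and 7.65 at day 28 and at 9.30 and 9.05 at day 14, and fell by 1.75 (limma adjusted p = 0.000694). It fell in the other genotypes too, by 1.39 in Cdh1F/F;Trps1F/F and by 2.33 in Cdh1F/F;Trps1+/+.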
